A study of Zea mays with 18 samples.

Results

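C4ppdkZm1 (GRMZM2G306345) and pdrp1 (GRMZM2G131286) are the maize gene models for the C4 pyruvate phosphate dikinase (PPDK) and for its regulatory protein. They are 2 of the 31855 gene models measured and were chosen by identifier. The study profiled leaf RNA of the maize hybrid Xianyu 335 at grain filling, with 18 libraries in 6 groups of 3. HA, HE and HB came from plants at high density and are the third leaf above the ear, the ear leaf and the third leaf below the ear. LA, LE and LB are the same leaf positions, titled as low density. For LA the titles say low density but the treatment field says high density, so each comparison with LA carries that conflict. All plants were the same hybrid under otherwise normal growth. The labels give no number of plants per area and do not say whether replicates are separate plants. The p-values therefore measure the spread between these samples, which may be technical.

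In C4 leaves carbon dioxide is first fixed in mesophyll cells by phosphoenolpyruvate (PEP) carboxylase, carried as malate to bundle sheath cells, and released there by malic enzyme for Rubisco. The pyruvate left over returns to the mesophyll chloroplast, where PPDK uses ATP and phosphate to turn it back into PEP, the acceptor for the next round. The regulatory protein acts on PPDK in both directions: it phosphorylates a threonine next to the catalytic histidine, which switches the enzyme off in the dark, and removes that phosphate in the light. Transcript levels say nothing of this phosphorylation state. The gene C4ppdkZm1 also holds an internal promoter for a shorter, cytosolic form, which RefSeq lists under the same locus as cyppdkZm1, so a value per gene model sums the plastid and cytosolic transcripts.

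C4ppdkZm1 was among the most abundant transcripts of these leaves, and its level was lower in HB than in any other group. In LE its level was 6650, 5322 and 6369 RPKM (reads scaled to gene length and library total) in replicates 1 to 3, in HA it was 6470, 5747 and 5676, and in LA it was 6371, 4924 and 5839. In HE it was 5896, 4609 and 4917 RPKM, and in LB it was 5252, 3592 and 5819. In HB it was 2225, 1447 and 1875 RPKM. The 3 HB libraries lay below all 15 others, and the lowest of those 15 was LB replicate 2. How many of all genes separate HB from the 15 others was not counted. In pairs of groups, in either direction, 39.9% of genes tested did not overlap between HB and LB. For HB and HE the share was 49.0%, and for HB and HA it was 54.8%. The group means fell in the order LE (6114 ± 700 RPKM, SD, n = 3), HA (5964 ± 440), LA (5711 ± 732), HE (5141 ± 672), LB (4888 ± 1157) and HB (1849 ± 390). Each neighbour in that order overlapped the next in its libraries except LB and HB. The gene ranked first of all gene models in 9 libraries, namely all 3 of HA, all 3 of LE, 2 of LB and 1 of HE. In LA it ranked 3 in each library, and in HB it ranked 11, 15 and 14. It held 0.634% to 1.18% of the summed RPKM of a library outside HB and 0.256% to 0.381% in HB.

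pdrp1 had a lower level than C4ppdkZm1 in every library and varied less between groups. Its level was 961, 922 and 1162 RPKM in LA, 861, 1147 and 975 in HA, and 866, 1140 and 984 in LE. It was 1055, 975 and 949 RPKM in HE, 901, 1038 and 1141 in LB, and 673, 824 and 944 in HB. The libraries of LA, HA, LE, HE and LB overlapped throughout, and the HB libraries overlapped those of each group except HE, whose lowest library was just above the highest of HB. The means were 1027 ± 121 RPKM (SD, n = 3) in LB, 1015 ± 129 in LA, 996 ± 138 in LE, 994 ± 144 in HA, 993 ± 55.4 in HE and 813 ± 135 in HB. Over the 18 libraries the coefficient of variation was 13.2% for pdrp1 and 32.6% for C4ppdkZm1. Both values include the HB libraries, which for C4ppdkZm1 lay below all others. Within groups the coefficient ran from 5.57% to 16.7% for pdrp1 and from 7.37% to 23.7% for C4ppdkZm1. pdrp1 ranked between 21 and 48 among all gene models in every library, and in HB replicates 1 to 3 it ranked 48, 31 and 30.

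**Figure D1:**
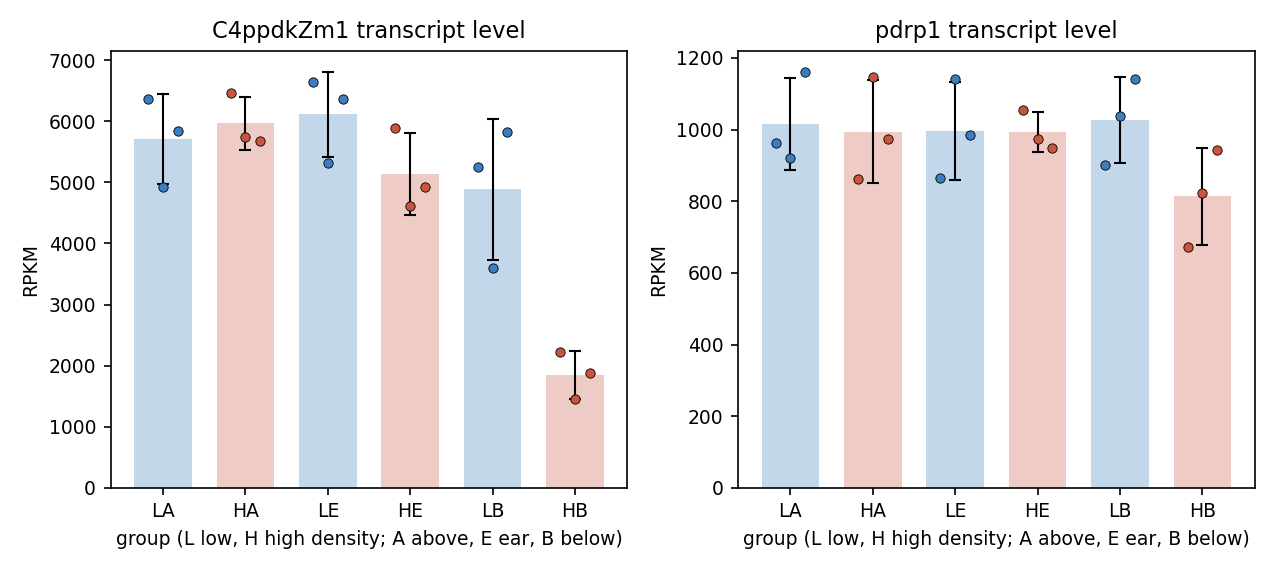
Level of C4ppdkZm1 (left) and pdrp1 (right) in RPKM, on separate axes that start at 0, for 6 groups of 3 libraries. Bars are means, whiskers are SD and points are libraries in the order of replicates 1 to 3, blue for groups titled low density and red for high density; only the C4ppdkZm1 points of HB, at 1447 to 2225 RPKM, stand apart from every other library.

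Density was compared within each leaf position with limma on log2(RPKM + 0.5), with p-values adjusted over 21184 genes and a call at adjusted p under 0.05. In the third leaf below the ear, C4ppdkZm1 fell by 1.39 on the log2 scale (SE 0.30, limma adjusted p = 0.00237) from LB to HB. This is a level 2.63-fold lower, with a 95% interval of 1.69-fold to 4.08-fold, and all 3 HB libraries lay below all 3 LB libraries. pdrp1 in the same comparison had a log2 fold change of -0.34 ± 0.18 (SE, adjusted p = 0.165) with an interval of -0.73 to 0.05, so it was not called. In this comparison 33.4% of all genes tested were called, 11.3% lower and 22.1% higher in HB, and the libraries did not overlap for 39.9% of genes. The median log2 fold change of all genes was 0.16, and it was 0.01 after rescaling each library by its median ratio, where C4ppdkZm1 stood at -1.55. After quantile normalization the value for pdrp1 was -0.03. C4ppdkZm1 remained called without any 1 of the 6 libraries, with log2 fold changes of -1.60 to -1.23, but not when genes of low value were kept in the fit (-1.39, adjusted p = 0.093).

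In the ear leaf neither gene was called between high and low density. C4ppdkZm1 had a log2 fold change of -0.25 ± 0.30 (SE, adjusted p = 0.617), and its interval of -0.89 to 0.38 leaves room for a difference in either direction. pdrp1 stood at 0.00 ± 0.18 (adjusted p = 0.995, interval -0.39 to 0.39). In this comparison 13.9% of all genes were called and the libraries of 40.9% did not overlap, while both genes overlapped between HE and LE. In the third leaf above the ear, C4ppdkZm1 was at 0.07 ± 0.30 (adjusted p = 0.965) and pdrp1 at -0.03 ± 0.18 (adjusted p = 0.973) for HA against LA. Both overlapped between the groups. There 0.118% of genes were called and 14.3% did not overlap, and the label conflict of LA applies.

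The density difference itself was then compared between leaf positions. For C4ppdkZm1 it was 1.14 log2 units more negative in the lower leaf than in the ear leaf (-1.14 ± 0.42, SE), which was not called (adjusted p = 0.139, background 3.85% of genes). Without LB replicate 2, the library with the lowest C4ppdkZm1 level of its group, the value was -1.35 and was called (adjusted p = 0.0359). Against the upper leaf the difference was -1.46 ± 0.42 (adjusted p = 0.0358), a call where 11.4% of genes tested were called and 5.10% were called in that direction. That call rests on the LA libraries as titled and was lost without any 1 of HA replicates 1 and 3, HB replicates 2 and 3, LA replicates 2 and 3 and LB replicates 1 and 3, with values of -1.30 to -1.50 and adjusted p up to 0.0911. It was also lost after median-ratio rescaling (-1.56, adjusted p = 0.087). For the upper leaf against the ear leaf the difference was 0.32 ± 0.42 (adjusted p = 0.728). The limma fit called 0% of genes there, while 3284 of 21184 had an unadjusted p under 0.05, and C4ppdkZm1 had an unadjusted p of 0.462. With the replicate block 12 genes were called, and 2 with no filter. The corresponding values for pdrp1 were -0.35 ± 0.26 (adjusted p = 0.487) for lower against ear, -0.31 ± 0.26 (adjusted p = 0.502) for lower against upper and -0.03 ± 0.26 (adjusted p = 0.959) for upper against ear.

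Leaf position was compared within each density. At high density C4ppdkZm1 was 2.81-fold lower in HB than in HE (log2 fold change -1.49 ± 0.30, SE, adjusted p = 0.00166), where 27.9% of genes were called and 10.7% were called lower. This call was lost when genes of low value were kept in the fit (adjusted p = 0.085). It was 3.27-fold lower in HB than in HA (-1.71 ± 0.30, adjusted p = 0.000248), where 43.9% were called and 15.5% were called lower. The libraries did not overlap in either comparison, as was so for 49.0% and 54.8% of all genes. These comparisons and HB against LB share the HB libraries. Between HA and HE the log2 fold change was 0.22 ± 0.30 (adjusted p = 0.795), where 2.44% of genes were called, 516 genes without and 871 with the replicate number as a block. At low density C4ppdkZm1 was at -0.35 ± 0.30 in LB against LE (adjusted p = 0.695, background 0.288%), -0.25 ± 0.30 in LB against LA (adjusted p = 0.621, background 9.49%) and -0.10 ± 0.30 in LA against LE (adjusted p = 0.85, background 5.74%). The LB against LA value turned to 0.22 after quantile normalization.

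pdrp1 was called in none of the 12 limma comparisons, and its smallest unadjusted p was 0.0818, for HB against LB. Its log2 fold changes by position were -0.30 ± 0.18 (SE) in HB against HE (adjusted p = 0.245) and -0.29 ± 0.18 in HB against HA (adjusted p = 0.212). The HB and HE libraries did not overlap, as was so for 49.0% of all genes, whereas those of HB and HA did. Both log2 fold changes turned positive after quantile normalization, to 0.03 and 0.05. HA against HE was at -0.01 ± 0.18, and the values of 0.03 ± 0.18 for LA against LE, 0.05 ± 0.18 for LB against LE and 0.02 ± 0.18 for LB against LA had adjusted p of 0.936 to 0.964. The interval for HA against HE, which is not adjusted over genes, ran from -0.40 to 0.38. Larger differences could also have gone uncalled, because calls used adjusted p-values.

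**Figure D2:**
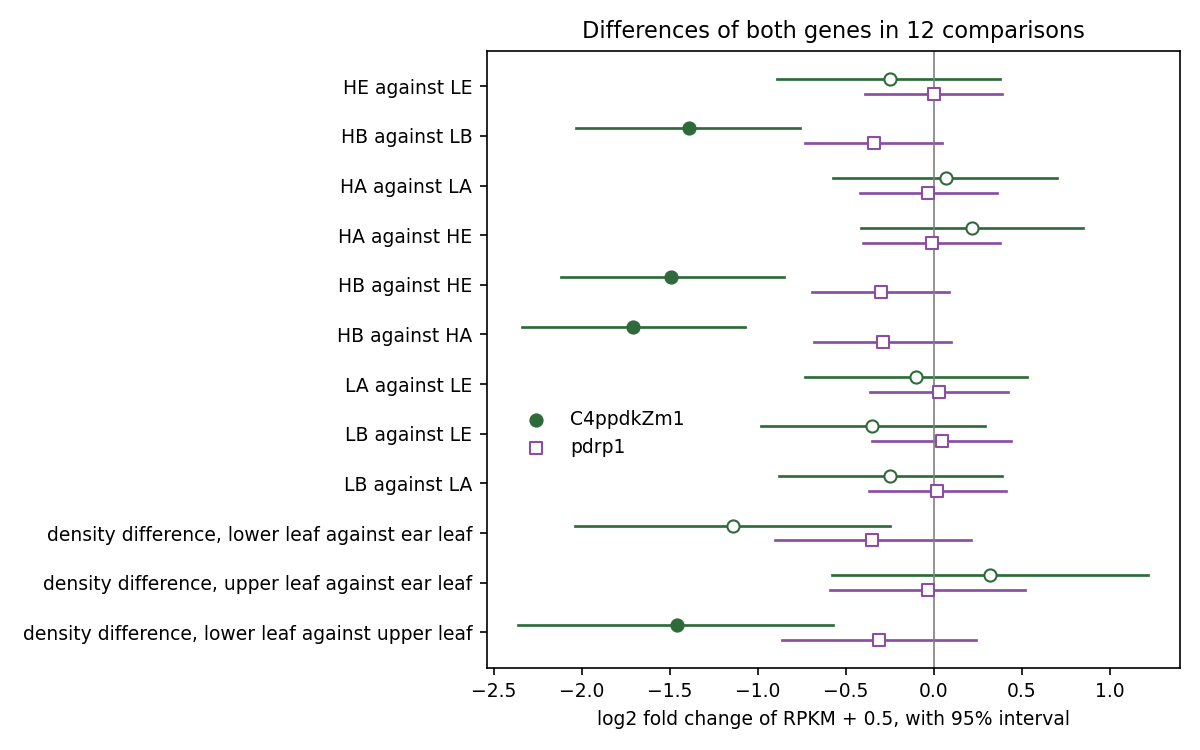
Log2 fold change of RPKM + 0.5 (points) with 95% intervals (lines) for C4ppdkZm1 (circles) and pdrp1 (squares) in 9 comparisons of groups and 3 comparisons of density differences. Filled points passed limma adjusted p under 0.05, which C4ppdkZm1 did in the 3 comparisons of HB with another group and in 1 comparison of density differences, and pdrp1 in 0.

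Because RPKM is scaled per length, the level of the regulatory protein's transcript can be set against that of its target within a library, where any library scaling cancels. The ratio of pdrp1 to C4ppdkZm1 was 0.303, 0.569 and 0.503 in HB and 0.171, 0.289 and 0.196 in LB. It was 0.179, 0.212 and 0.193 in HE, 0.130, 0.214 and 0.154 in LE, 0.133, 0.200 and 0.172 in HA and 0.151, 0.187 and 0.199 in LA. All 3 HB libraries therefore had a higher ratio than each of the 15 others. In HB the ratio was 2.07-fold that of LB (log2 difference 1.05, 2-sided exact permutation p = 0.1, which is the smallest p that 3 against 3 libraries allow). In the ear leaf it was 1.19-fold (exact permutation p = 0.4) and in the upper leaf 0.933-fold (exact permutation p = 0.7), with overlapping groups in both. These are 3 of 12 ratio comparisons, and their adjusted p were 0.3, 0.686 and 0.84.

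C4ppdkZm1 was also set against the enzymes on either side of it in the cycle. pep1 (GRMZM2G083841) encodes the C4 PEP carboxylase, which uses the PEP that PPDK makes. The ratio of C4ppdkZm1 to pep1 was 3.60, 3.14 and 5.02 in HB and 1.35, 1.74 and 1.11 in LB, a 2.79-fold higher ratio without overlap (exact permutation p = 0.1, adjusted p = 0.3). In the 12 libraries of HA, HE, LA and LE it lay between 0.971 and 1.38, so both transcripts were near parity there. mdh6 (GRMZM2G129513) encodes NADP-malate dehydrogenase, the mesophyll enzyme that forms malate. The ratio of C4ppdkZm1 to mdh6 was 6.77, 4.86 and 5.12 in HB and 5.32, 4.89 and 5.05 in LB, with overlap (exact permutation p = 0.7). Across all 18 libraries this ratio ranged only from 4.75 to 6.77. It was higher in HE (6.17, 6.51 and 6.35) than in LE (5.47, 4.77 and 5.16), without overlap (exact permutation p = 0.1, adjusted p = 0.3).

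ME1 (GRMZM2G085019) is the NADP-malic enzyme of the bundle sheath that releases the pyruvate on which PPDK acts. The ratio of C4ppdkZm1 to ME1 was 15.8, 8.97 and 11.3 in HA and 10.9, 15.1 and 12.5 in LA, overlapping (exact permutation p = 0.8). It was 6.80, 5.61 and 5.10 in HE and 8.59, 8.26 and 11.3 in LE, a 0.624-fold ratio without overlap (exact permutation p = 0.1, adjusted p = 0.3). It was 2.77, 3.17 and 4.05 in HB and 5.81, 4.03 and 6.63 in LB, where LB replicate 2 overlapped HB (exact permutation p = 0.2). The means went from 12.8 ± 2.1 in LA to 9.38 ± 1.7 in LE and 5.49 ± 1.3 in LB (SD, n = 3), and at high density from 12 ± 3.5 in HA to 5.84 ± 0.87 in HE and 3.33 ± 0.65 in HB. These differences between leaf positions were not tested.

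**Figure D3:**
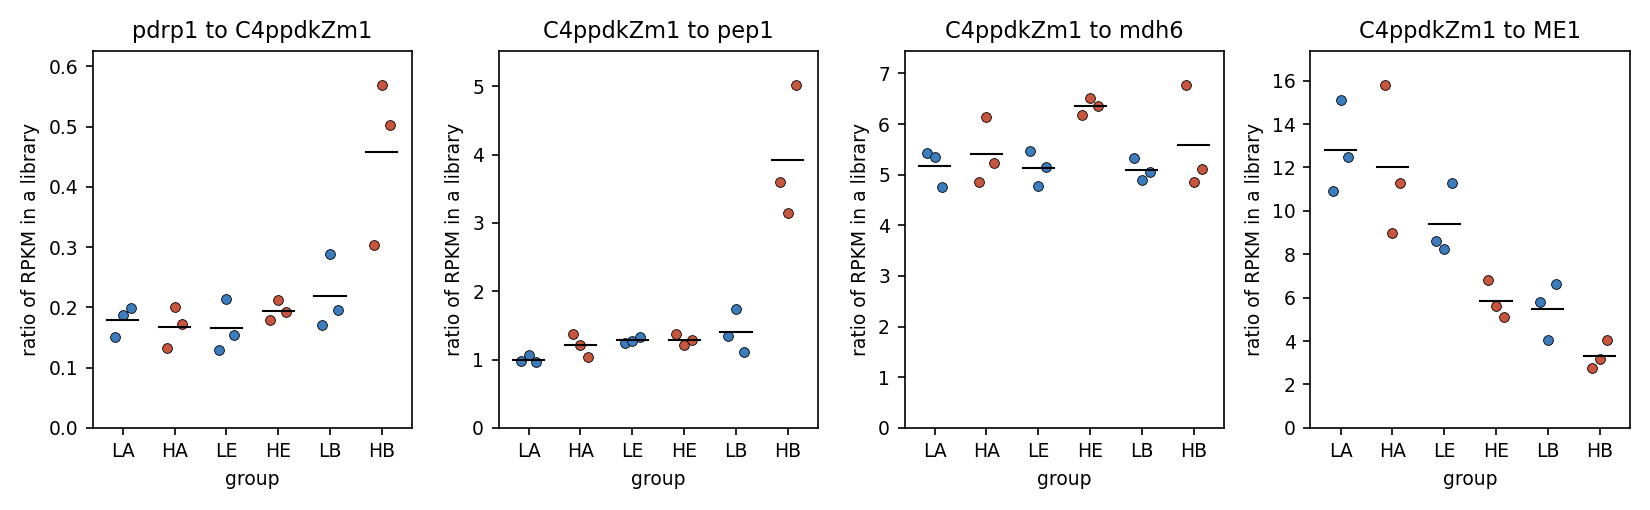
Ratio of RPKM within each library for pdrp1 to C4ppdkZm1 and for C4ppdkZm1 to pep1, mdh6 and ME1, by group, on axes that start at 0. Points are the 3 libraries, blue for groups titled low density and red for high density, and lines are means; in HB the first ratio reaches 0.303 to 0.569 and the second 3.14 to 5.02, above every other group, while the ratio to mdh6 stays between 4.75 and 6.77.

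A further PPDK gene, PPDK2 (GRMZM2G097457, cytosolic), was barely present. Its level was 1.20, 0.853 and 0.765 RPKM in HB, 2.17, 0.612 and 1.82 in LB, 3.04, 4.08 and 2.43 in HE and 2.14, 1.23 and 1.64 in LE. In HA it was 1.53, 1.57 and 3.26 RPKM, and in LA 1.88, 0.840 and 1.25. All 3 HE libraries lay above all 3 LE libraries, with a log2 fold change of 0.76 ± 0.33 (SE, adjusted p = 0.131), which was not called. The HE and LE libraries did not overlap, in either direction, for 40.9% of all genes tested. The HB against LB value was -0.42 ± 0.33 (adjusted p = 0.35). Among leaf positions PPDK2 fell by 1.34 from HE to HB (SE 0.33, limma adjusted p = 0.00613), without overlap of the libraries. There 27.9% of all genes were called, 10.7% were called lower and 49.0% did not overlap. The PPDK2 call held without any 1 of the 6 HE and HB libraries (adjusted p up to 0.032). PPDK2 was called in none of the other 8 comparisons of groups, and HB against HA was at -0.82 ± 0.33 (adjusted p = 0.0537). Reads from this gene and from C4ppdkZm1 can be alike in sequence, and the authors' treatment of reads with several matches is not stated, so the low level of PPDK2 is uncertain.

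Around PPDK, 18 genes of the same metabolism (PPDK2 among them) were followed, of which 17 passed the filter on low values and PPCK4 did not. All 18 were picked by symbol and role with earlier results of these data known, so the counts below describe the list and test nothing. In HB against LB, 8 of the 17 were called lower and 1 higher, where 11.3% of all genes were called lower and 22.1% higher. The median log2 fold change was -0.42 for the 17 and 0.16 for all genes. Leaving out 1 library moved the list: without LB replicate 1 it had 6 lower and 1 higher with a median of -0.27, without LB replicate 3 it had 7 and 1 with -0.27, and without LB replicate 2 it had 8 and 1 with -0.69. Without HB replicate 2 it had 6 lower and 2 higher with a median of -0.38, and the medians without HB replicates 1 and 3 were -0.54 and -0.33. The 3 other cycle enzymes that were followed fell, pep1 by 2.87 (SE 0.32, adjusted p = 2.53e-05), mdh6 by 1.51 (SE 0.20, adjusted p = 7.63e-05) and ME1 by 0.69 (SE 0.24, adjusted p = 0.0383). Carbonic anhydrases, PEP carboxykinase and aspartate and alanine aminotransferases were not followed. ME1 kept its call without HB replicate 1 but lost it when any of the other 5 libraries was left out, with an adjusted p of at most 0.148. It also lost it after quantile normalization (0.0683), with no filter (0.0725) and with only the groups compared (0.0959). Of 5 plastid envelope transporters, 3 fell. pDCT2 (GRMZM2G086258) and pDCT1 (GRMZM2G040933), dicarboxylate transporters, fell by 1.76 and 1.07, and pOMT1 (GRMZM2G383088), an oxoglutarate/malate transporter, fell by 1.43 (adjusted p = 5.82e-05 to 0.00014).

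The PEP/phosphate translocator genes that were followed were not called in HB against LB. Whether they differed from the transporters above was not tested. ppt1 (GRMZM2G047404) and ppt2 (GRMZM2G103047), PEP/phosphate translocators that carry PEP across the plastid envelope, were at 0.17 ± 0.19 and 0.16 ± 0.10 (SE, adjusted p = 0.515 and 0.236) in HB against LB. Their levels were 7.28, 7.76 and 7.13 RPKM for ppt1 in HB against 8.12, 5.90 and 5.76 in LB, and 30.0, 35.0 and 33.1 for ppt2 against 32.0, 28.9 and 26.8. Both pairs of groups overlapped. Among enolases, which form PEP from glycolysis, eno1 (GRMZM2G064302) fell by 1.52 (SE 0.19, adjusted p = 4.9e-05) from 370 ± 87.8 to 126 ± 14.7 RPKM. The other enolase gene, eno2 (GRMZM2G048371), was at 0.09 ± 0.13 (adjusted p = 0.621), with 157 ± 18.9 RPKM in LB and 167 ± 5.83 in HB.

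Genes of the same enzyme classes outside the C4 pair were mixed. me2 (GRMZM2G122479), a malic enzyme gene, rose by 0.60 (SE 0.15, adjusted p = 0.00574), from 71.5 ± 6.70 RPKM in LB to 109 ± 15.9 in HB. pep4 (GRMZM2G473001), a further PEP carboxylase gene, fell by 1.01 (SE 0.30, adjusted p = 0.0172), a call lost without HB replicate 2 (0.0646) or LB replicate 1 (0.0919). pep7 (GRMZM2G069542) was at -0.03 ± 0.14 (adjusted p = 0.882). The 3 tested PEP carboxylase kinases, which phosphorylate that enzyme, were at 0.10 (PPCK1), 0.42 (PPCK2) and -0.17 (PPCK3), and none was called (adjusted p = 0.0908 to 0.862). In the ear leaf 1 of the 17 genes was called, against a background of 8.97% higher and 4.97% lower. It was PPCK2 (GRMZM2G135091), a PEP carboxylase kinase gene, which rose by 0.92 (SE 0.19, adjusted p = 0.00664) from 7.88 ± 0.954 to 15.3 ± 1.08 RPKM. In the upper leaf 0 of 17 were called with limma and 0 had an unadjusted p under 0.05, where 0.118% of all genes were called and 1864 of 21184 had an unadjusted p under 0.05. A count of 0 among 17 says little against so low a background. The median of the 17 was -0.03 where that of all genes was 0.05.

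**Figure D4:**
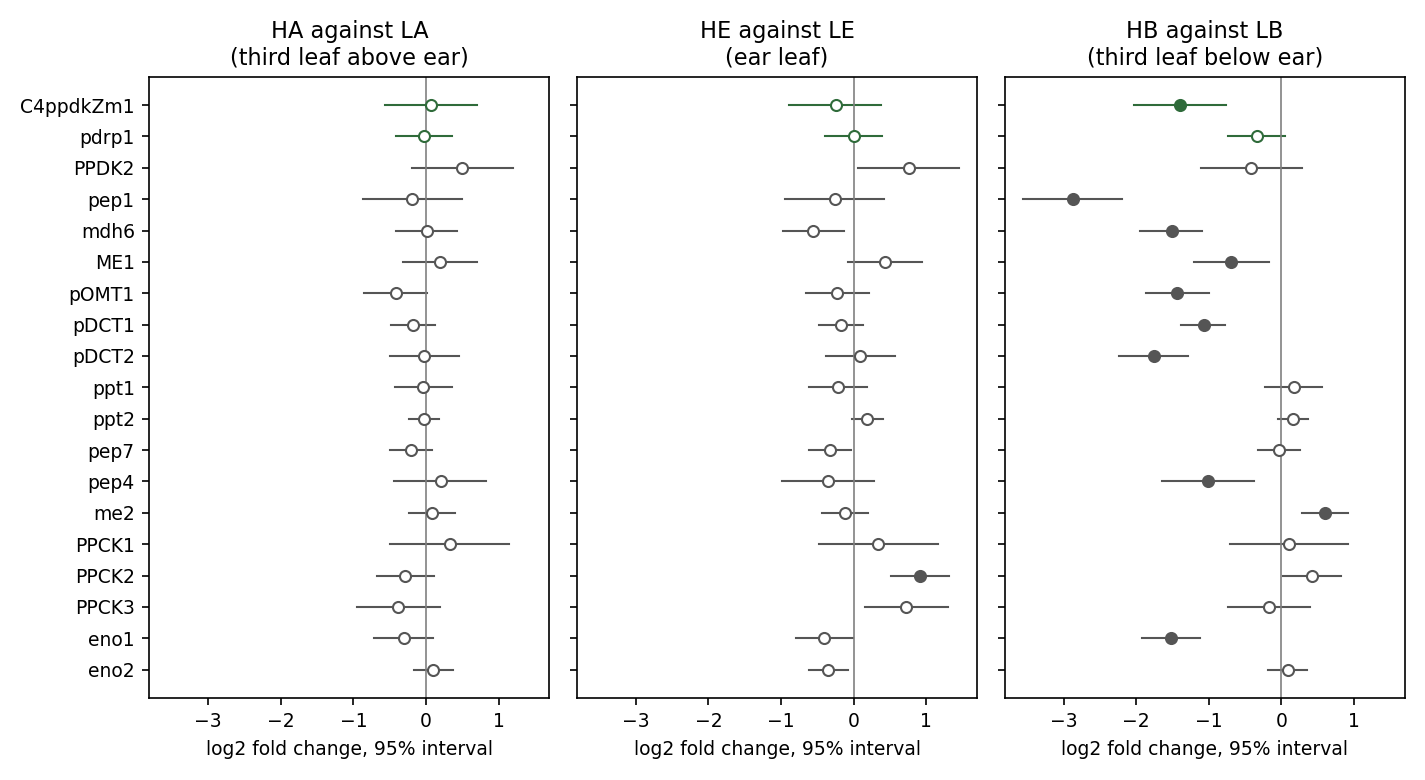
Log2 fold change between high and low density (points) with 95% intervals (lines) for C4ppdkZm1 and pdrp1 (green) and 17 genes of PEP, pyruvate and malate metabolism (grey), in the upper leaf, the ear leaf and the lower leaf. Filled points passed limma adjusted p under 0.05; in the lower leaf C4ppdkZm1 and 8 of the 17 are lower and me2 is higher, in the ear leaf only PPCK2 is filled, and in the upper leaf no point is.

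Mesophyll marker genes were lowest, and ageing genes highest, in the HB libraries, where C4ppdkZm1 was lowest. Like the other lists, these markers were chosen with earlier results of these data known. The share of all genes lowest or highest in HB was not counted. Summed bundle sheath marker genes in HB lay below those in LB and HE and overlapped those in HA, LA and LE. The summed level of 2 mesophyll genes, pep1 and mdh6, was 740 to 947 RPKM in HB and 2798 to 6417 in LB, and 4489 to 7662 in the other groups. Their means were 3736 RPKM for pep1 and 958 for mdh6 in LB, and 484 and 331 in HB. Both are also among the pathway genes described above. Carbonic anhydrase genes and pck1 were planned as further mesophyll and bundle sheath markers and were not followed. For 3 bundle sheath gene models, ME1 and both rbcS models of the Rubisco small subunit, the sum was 751 to 1301 RPKM in HB. It was 1479 to 1877 in LB, 1529 to 1853 in HE and 631 to 1342 in HA, LA and LE. In HB against LB the rbcS models were at -1.02 ± 0.29 and -1.11 ± 0.30 (log2 fold change, SE, limma adjusted p = 0.0125 and 0.00955). Both were called lower, where 11.3% of all genes were. SGR2 (GRMZM2G091837), which starts chlorophyll breakdown, and ICL (GRMZM2G056369), isocitrate lyase of the glyoxylate cycle, summed to 110 to 406 RPKM in HB and to 8.08 or less in every other library. Fewer mesophyll cells and less RNA per cell cannot be told apart in whole leaves, and the part of cell make-up or ageing in the C4ppdkZm1 difference was not tested. Summed RPKM lay between 560984 and 595593 in the 18 libraries. The files hold no read totals, and relative depths recovered from the smallest values differed by 1.27-fold at most, with 1 read standing for about 0.046 RPKM in rare genes, so both genes lie far above the level where counting sets the precision.

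The genes whose pattern over the 18 libraries was most like that of C4ppdkZm1 were sought among 1518 named gene models with a mean of at least 5 RPKM, by Pearson's r of log2(RPKM + 0.5), as a description. WHY1 (GRMZM2G155662), a Whirly protein that binds plastid nucleic acid, came first with r = 0.981. Emb14 (GRMZM2G384293) followed with 0.979, PSY1 (GRMZM2G300348), a phytoene synthase of carotenoid formation, with 0.978, and pep1 and FTR-B (GRMZM2G122793), a ferredoxin-thioredoxin reductase gene, each with 0.976. The 3 HB libraries lie far from the rest and weigh on these values. Over the 15 other libraries r was 0.898 for WHY1, 0.922 for Emb14, 0.816 for PSY1, 0.861 for pep1 and 0.839 for FTR-B. pdrp1 came at place 325 with r = 0.499, and at -0.132 over the 15 libraries without HB.

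The genes most like pdrp1 had lower values throughout. They were psaN (GRMZM2G080107), a photosystem I subunit, with r = 0.685, lox6 (GRMZM2G040095), a lipoxygenase, with 0.664, SnRK2.5 (GRMZM2G110908), a protein kinase, with 0.662, por (GRMZM2G073351), a protochlorophyllide reductase, with 0.653, and Hcf106C (GRMZM2G151529), of thylakoid protein transport, with 0.652. Without the HB libraries these were 0.650, 0.498, 0.692, 0.400 and 0.583. All of these r are taken over the same libraries and share their depth and scaling.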

How the data were processed

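The files, as deposited by the authors, give 1 RPKM value per gene model and library. Per the submitters' processing notes, Trimmomatic 0.35, HISAT 0.1.6, HTSeq 0.6.1 and the build B73 RefGen_v3 were used; formula, gene lengths, strand and multiply matching reads are not given in the sources used here. Groups follow the titles. Gene names are from a RefSeq table of another assembly (NAM-5.0), in which 17838 models were found, so no positions are given.

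The limma 3.58.1 fit (R 4.3.3) took log2(RPKM + 0.5) of the 21184 genes that reached 1 RPKM in 3 or more libraries, with 6 group means, 12 residual degrees of freedom and a prior variance that follows intensity. P-values are 2-sided and Benjamini-Hochberg adjusted over those genes, and folds are on that log2 scale. The fit was run on simulated data with independent normal noise and known changes placed in HE only. That setting does not cover the HB comparisons, where many genes were called and some calls moved with the filter or scaling. Ratios were compared by exact permutation (scipy 1.17.1) with adjustment over 12 comparisons, 9 of which were added after seeing the data. Relative depth came from 2472 rare genes, where 99.7% of 3917 values above 1 read lay within 0.1 of a whole multiple.

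Libraries with the same number deviated together (all 3 correlations above 0.1) for HA and HE and for HA and LB, among 15 pairs of groups. Named genes are both members, the other PPDK gene, pep1, ME1, the most significant called gene of each list and direction, and the 5 named genes most correlated with each member. The remaining list genes were named after their values were seen. RefSeq descriptions were not available for the planned name patterns, so the 18 pathway genes were picked by symbol and role. Several planned classes are absent from them. These are carbonic anhydrases, PEP carboxykinase, aspartate and alanine aminotransferases, adenylate kinase, inorganic pyrophosphatase, pyruvate kinase and sodium cotransporters of pyruvate. The members and lists were chosen with earlier results of these data known.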

Additional observations from a re-analysis of the deposited data

Results flagged for a closer look

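The density difference of C4ppdkZm1 in the lower leaf was -1.46 log2 units from that in the upper leaf (limma adjusted p = 0.0358), which is a difference between leaf positions in the same contrast. All 3 HB libraries lay below all 3 LB libraries, while HA and LA overlapped. The call was lost in 8 of 12 fits that left out 1 library (adjusted p up to 0.0911), after median-ratio rescaling (0.087), with no filter on low values (0.334) and with only the groups compared (0.0941). The LA libraries carry conflicting density labels, and the cause was not tested.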

How the results depend on the processing

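Over 27 results, 431 alternatives were run. Of these, 381 kept the direction and side of the threshold, 13 lost a call, 3 gained one and 34 changed sign. The causes were not tested. Only results called in the main fit could lose a call, and for the ratios only a change of sign was scored. Of the 13 lost calls, 8 came from leaving out 1 library in the density difference of the lower against the upper leaf. For C4ppdkZm1, keeping genes of low value gave -1.39 (adjusted p = 0.093) for HB against LB, -1.49 (0.085) for HB against HE and -1.46 (0.334) for the density difference of the lower against the upper leaf. That last difference was -1.56 (0.087) after median-ratio rescaling and -1.46 (0.0941) with only the groups compared. The difference of the lower against the ear leaf was called at -1.14 with no variance trend (0.0334) and at -1.33 after quantile normalization (0.05), which also gave 0.22 for LB against LA. For pdrp1, median-ratio rescaling gave -0.03 for HE against LE, 0.03 for HA against HE and -0.05 for LB against LA. Quantile normalization gave -0.15 for HE against LE, 0.03 for HA against LA and HB against HE, 0.05 for HB against HA, -0.19 for LA against LE and -0.09 for LB against LE. It gave 0.12 and 0.18 for the density differences of the lower and of the upper against the ear leaf.

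Leaving out 1 library at a time, C4ppdkZm1 ranged from -0.03 to 0.15 for HA against LA, from -0.20 to 0.00 for LA against LE, from -1.35 to -0.98 for the lower against the ear leaf and from -1.67 to -1.30 for the lower against the upper leaf. pdrp1 ranged from -0.09 to 0.10 for HE against LE, -0.14 to 0.07 for HA against LA, -0.11 to 0.09 for HA against HE, -0.07 to 0.13 for LA against LE, -0.05 to 0.15 for LB against LE, -0.06 to 0.12 for LB against LA and -0.14 to 0.07 for the upper against the ear leaf. The log2 ratio of pdrp1 to C4ppdkZm1 in HA against LA ranged from -0.23 to 0.06.

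With the replicate number as a block, C4ppdkZm1 in HB against LB stayed at -1.39 (limma adjusted p = 0.000557), and the block changed no call of either gene. Genes called with the block numbered 871 against 516 for HA and HE, 2320 against 1215 for LA and LE, 195 against 61 for LB and LE, 1566 against 815 for the lower against the ear leaf and 12 against 0 for the upper against the ear leaf. With only the groups compared they numbered 4295 against 7070 for HB and LB, 15 against 25 for HA and LA, 20 against 61 for LB and LE, 434 against 2010 for LB and LA and 1476 against 2409 for the lower against the upper leaf. A pseudocount of 0.1 gave 13 for HA and LA, no filter gave 2 for the upper against the ear leaf, and leaving out LA, chosen after seeing the data, gave 38 for LB and LE. Leaving out 1 library gave 903 to 2513 genes for HE and LE (2953 with all libraries), 4609 to 8969 for HB and LB, 2 to 17 for HA and LA, 150 to 816 for HA and HE, 111 to 883 for LA and LE, 23 to 89 for LB and LE and 658 to 2402 for LB and LA. It gave 221 to 2943 for the lower against the ear leaf, 1154 to 3768 for the lower against the upper leaf and 0 to 31 for the upper against the ear leaf, so the shares of genes called are themselves uncertain.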
